A study of Mus musculus with 8 samples.

Results

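Expression of genes of glycolysis and of the response to hypoxia was measured in myeloid cells cultured with trefoil factor 2 (TFF2), a small secreted peptide. The set held 36 genes chosen by name, and 31 of them were tested, out of 12393 genes on the arrays. A gene was represented by the brightest of the probe sets that carry its symbol alone. *Hk3*, *Gpi1*, *Eno1* and *Pfkfb4* had no such probe set in the annotation used here, and *Gapdh* had it only among the control probe sets of the array, so its values are given apart from the counts. The set was divided into glycolytic enzymes (13 tested), the glucose and lactate transporters with the regulator *Pfkfb3* (4 tested) and hypoxia genes (14 tested, of which 4 sense oxygen or form the hypoxia factor and 10 are its known targets).

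Immature myeloid cells (IMCs), sorted from spleen as CD11b+Gr-1+, came from 4 male Tff2-/- mice on a C57BL/6 background, 16 weeks old, that had drunk 3% DSS, a chemical that injures the colon, for 5 days and plain water for 14 days. Each animal gave cells to an rTFF2 culture, with 5 nM Csf2 (GM-CSF, a myeloid growth factor) plus 3 µM mouse recombinant Tff2, and to a control culture with 5 nM Csf2 alone. Both were kept for 7 days, and each culture was measured on 1 Affymetrix array, so that n = 4 mice in each group and the cultures form 4 pairs. Both groups thus shared the gene deletion, the colitis and the growth factor, and freshly sorted or wild-type cells were not analysed here.

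Values are log2 signals made by the authors with GCRMA, so a difference of 1 is a 2-fold change. Group differences were tested with limma with the mouse as a block, adjusted over 22626 probe sets (Benjamini-Hochberg), and a gene was called at an adjusted p under 0.05. Array medians ranged from 4.14 to 4.20 with rTFF2 and from 4.09 to 4.12 in control cultures. A background level of 2.99 was taken from 46 genes of other tissues, and 28 of the 31 genes lay above it in at least one group. *Tff2* itself, deleted in all these mice, was below it (2.28 with rTFF2, 2.45 in control cultures), while *Itgam*, which encodes CD11b, was strongly expressed (12.72 with rTFF2, 12.35 in control cultures). Among markers of myeloid cell types, to which the sorted cells belong, all 16 measured neutrophil genes were higher with rTFF2. Of dendritic cell or MHC class II genes 12 of 14 were lower, and of basophil and mast cell genes 8 of 12 were higher. Of eosinophil genes 3 of 6 were higher and 1 lower, and of macrophage genes 6 of 16 were higher and 3 lower. Over all genes 14.5% were higher and 13.3% lower, and over those above background 22.1% and 18.3%. In rTFF2 cultures against control cultures, the summed signals of these lists (log2) were 16.53 to 16.77 against 15.23 to 16.14 for neutrophils, 13.09 to 13.72 against 15.16 to 15.48 for dendritic cells and 12.06 to 12.94 against 7.76 to 9.03 for basophils and mast cells, without overlap. They were 12.11 to 13.41 against 9.66 to 11.69 for eosinophils, 15.64 to 15.84 against 15.22 to 15.66 for macrophages, which overlapped, and 9.12 to 9.31 against 8.34 to 8.94 for stromal and endothelial cells (3 of 21 genes higher, 3 lower, 4 above background). Above background lay 4 of 16 T and NK cell genes (sums of 10.10 to 10.42 against 10.18 to 10.37; 2 genes lower), 2 of 14 B cell genes (7.20 to 7.47 against 7.09 to 7.31; 1 higher) and 1 of 9 erythroid genes (5.45 to 5.53 against 5.54 to 5.68), while *Cd3e*, *Cd79a* and *Klf1*, which define these cells, lay at background in both groups. In bulk RNA, a different share of cells of a type and a different amount of RNA per cell cannot be told apart, and the part of these shifts in the results below was not tested.

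Glycolysis turns glucose into pyruvate in the cytosol. Glucose enters through transporters of the GLUT family, hexokinase traps it, phosphofructokinase commits it to the pathway under control of a sugar phosphate made by PFKFB enzymes, and lactate dehydrogenase regenerates the cofactor while lactate leaves through monocarboxylate transporters. Hypoxia-inducible factor 1 (HIF-1) raises many of these genes together with angiogenic, mitophagy and stress genes. With oxygen, prolyl hydroxylases encoded by *Egln* genes mark its alpha chain for destruction, so that its activity is set largely by protein stability and not by its mRNA. Neutrophils and activated macrophages are known to rely heavily on glycolysis, and in inflammation HIF-1 is also active without low oxygen.

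Of the 31 genes tested, 7 were higher and 4 were lower with rTFF2, and 20 were not called, while without the mouse block 4 were called, all higher. Over all 12393 genes, the fit without the block called 1531 higher and 1389 lower, against 1791 and 1647 with it. The genes that rose encode the glucose transporter GLUT3 (*Slc2a3*), a lactate exporter (*Slc16a3*), the regulator *Pfkfb3*, the hypoxia factor itself (*Hif1a*) and its targets *Ddit4*, *Vegfa* and *Mxi1*, and those that fell were *Pfkp*, *Aldoc*, *Pdk1* and *Ndrg1*. These 11 calls (35.5%) stood beside 27.7% of all 12393 genes, and beside 40.4% of the 7926 genes above background, the class to which all 11 belong. In single directions, 14.5% of all genes and 22.1% of those above background were higher, and 13.3% and 18.3% were lower. The share of called genes was therefore near that of expressed genes in general, and what follows describes which genes were called and which were not. The median log2 fold change was 0.10 over the set, against -0.03 over all genes and 0.02 over the expressed ones. For 3 genes the groups did not overlap (*Slc2a3*, *Hif1a* and *Ddit4*), where 27.4% of all genes had groups that did not overlap.

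**Figure D1:**
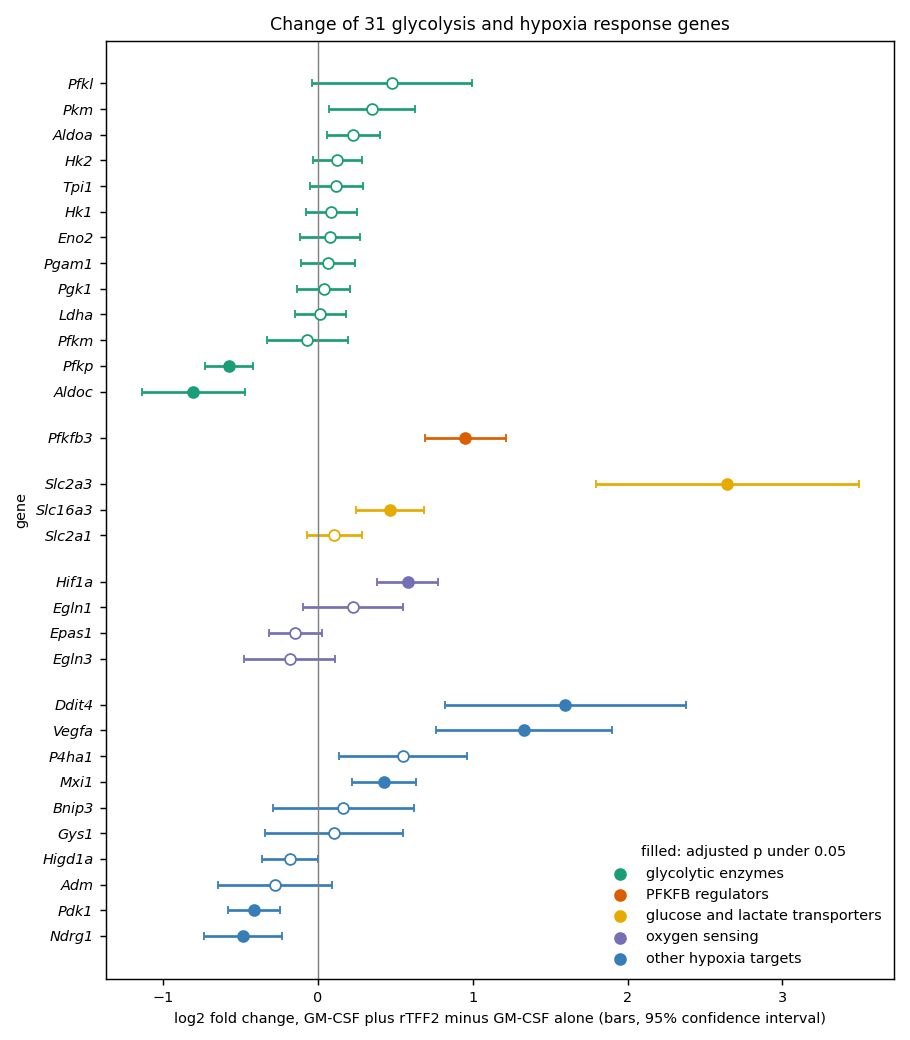
Log2 fold change (rTFF2 cultures minus control cultures, horizontal axis) of the 31 genes tested, in 5 groups by colour, with bars for the 95% confidence interval and filled points for adjusted p under 0.05. *Slc2a3* lies farthest to the right at 2.64, *Aldoc* farthest to the left at -0.81, and most glycolytic enzymes lie between 0.02 and 0.48 with open points.

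One measure of RNA quality moved with the groups. The difference between the 3′ and 5′ control probe sets of *Actb* was 0.66 to 0.74 with rTFF2 and 0.42 to 0.62 in control cultures, higher in 4 of 4 mice, by 0.17 on average (exact permutation test over 70 splits, two-sided p = 0.029, the smallest it allows; 0.125 over the 16 sign changes within mice, also the smallest). For *Gapdh* it was 0.22 to 0.29 with rTFF2 and 0.13 to 0.31 in control cultures (p = 0.40 from the exact test over 70 splits). With the *Actb* difference as a covariate, 2 of the 11 calls were kept, *Slc2a3* (4.05, adjusted p = 0.0077) and *Aldoc* (-1.37, 0.010), the other 9 had adjusted p of 0.057 to 0.75, and *Egln3* (-0.70, 0.045) and *Adm* (-0.93, 0.042) passed. The log2 fold changes were then 0.32 for *Ddit4*, 0.34 for *Vegfa*, 0.14 for *Mxi1*, 0.65 for *Pfkfb3* and 0.50 for *Hif1a*, and 0.46 for *Slc16a3*, -0.54 for *Pfkp*, -0.51 for *Pdk1* and -0.81 for *Ndrg1*. Without the covariate they were, in the same order, 1.60, 1.33, 0.43, 0.95 and 0.58, and 0.47, -0.58, -0.41 and -0.48. The ranges of this measure did not overlap between the groups. This fit therefore cannot tell its part from that of rTFF2 for any of these genes.

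Most glycolytic enzymes were not called, with 15.4% called against 27.7% of all genes and 40.4% of those above background. Of 13 enzymes, 2 were lower with rTFF2, none was higher and 11 were not called (by limma; 2 were higher at an unadjusted p under 0.05), with a median log2 fold change of 0.07. *Ldha*, which encodes the lactate dehydrogenase chain that favours lactate formation, had signals of 12.96, 12.72, 13.12 and 13.13 in the rTFF2 cultures of mice 1 to 4, against 12.99, 12.59, 13.15 and 13.14 in their control cultures. The values of the 2 groups overlapped throughout, and the difference was 0.02 (95% confidence interval -0.15 to 0.18, adjusted p = 0.90). *Pgk1*, which encodes the kinase that yields the first ATP of the pathway, differed by 0.04 (-0.14 to 0.21). For the mutase gene *Pgam1* the difference was 0.07 (-0.11 to 0.24), for the isomerase gene *Tpi1* 0.12 (-0.06 to 0.29), for the hexokinase genes *Hk1* and *Hk2* 0.09 and 0.12 (-0.08 to 0.25 and -0.03 to 0.28), and none of these was called. The upper bounds of these intervals reached a 1.22-fold rise in signal. Bright signals may be compressed, so these bounds hold for the measured signal and not for the amount of RNA.

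*Gapdh*, the enzyme often used as a reference gene, was measured only by its control probe sets, and the brightest of these, at the 3′ end, had signals of 13.32, 13.18, 13.48 and 13.55 with rTFF2 against 13.33, 13.00, 13.42 and 13.42 in control cultures. It was higher in 3 of 4 mice by a mean of 0.09 (standard error 0.07, 95% confidence interval -0.07 to 0.26, adjusted p = 0.39 in a limma fit that kept the control probe sets, which was added after seeing the data). The probe sets of its 5′ end and middle differed by 0.05 each. All 3 were well inside the spread between mice.

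Higher means that missed the threshold were seen for *Aldoa* (0.23, adjusted p = 0.061), which encodes the aldolase found in most tissues, for *Pkm* (0.35, 0.073), the pyruvate kinase gene of leukocytes, and for *Pfkl* (0.48, 0.16), the liver-type phosphofructokinase gene. *Aldoa* and *Pkm* had the same direction in 4 of 4 mice and their 95% intervals, unadjusted for the number of genes, lay above 0. *Aldoa* was called with the trended and robust prior (adjusted p = 0.0089), with a second quantile normalization (0.049) and with the offset (0.048), and *Pkm* with the trended and robust prior (0.035). *Pfkm*, the muscle-type phosphofructokinase gene, was dim (3.38 with rTFF2, 3.45 in control cultures), and *Eno2*, the neuronal enolase gene, lay at background in all 8 cultures.

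Both enzymes that fell have isoforms that were also measured in these cultures. *Pfkp*, the platelet-type phosphofructokinase gene, had signals of 10.45, 9.96, 10.88 and 10.99 with rTFF2 against 11.06, 10.56, 11.38 and 11.59 in control cultures of mice 1 to 4. It was lower in each mouse by 0.50 to 0.61, so that the difference was nearly the same in all 4 animals, although the groups overlapped. The fitted difference was -0.58 (standard error 0.07, 1.49-fold lower, adjusted p = 0.0013, and 0.16 without the mouse block). *Aldoc*, an aldolase gene best known from brain and also induced by hypoxia, had signals of 9.51, 8.53, 10.41 and 10.48 with rTFF2 against 10.54, 8.76, 11.39 and 11.47 in control cultures. Mouse 2 was the lowest in both groups and moved least, by -0.23, where the other mice moved by -0.98 to -1.03. The fitted difference was -0.81 (standard error 0.14, 1.75-fold lower, adjusted p = 0.0067, and 0.41 without the mouse block), and a second, dimmer *Aldoc* probe set gave -1.65.

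Of the 4 genes of transport and of *Pfkfb3*, 3 were higher with rTFF2 and 1 was not called, with a median log2 fold change of 0.71. Of all genes 14.5% were higher, and of those above background 22.1%. *Slc2a3* encodes GLUT3, a high-affinity glucose transporter of neurons and leukocytes. Its signals were 9.36, 9.08, 10.66 and 10.85 in the rTFF2 cultures of mice 1 to 4, against 7.68, 7.35, 7.17 and 7.18 in their control cultures. The groups did not overlap, and the rise was 1.68 and 1.73 in mice 1 and 2 and 3.49 and 3.67 in mice 3 and 4. The fitted log2 fold change was 2.64 (standard error 0.36), a 6.25-fold rise (95% confidence interval 3.47 to 11.3, adjusted p = 0.0025), the largest in the set. A second bright probe set of the gene gave 2.82. Both bright probe sets carry suffixes that mark probes able to match more than 1 transcript, and the other 2 probe sets of *Slc2a3* lay at background in both groups.

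*Slc2a1*, which encodes GLUT1, the widespread glucose transporter, was not called. Its signals were 13.09, 12.72, 13.27 and 13.07 with rTFF2 against 12.85, 12.60, 13.14 and 13.13 in control cultures, and the groups overlapped. The difference was 0.10 (95% confidence interval -0.07 to 0.28, adjusted p = 0.36), and its dimmer probe sets gave 0.23 and 0.42 (adjusted p = 0.063 and 0.054). *Pfkfb3* encodes the enzyme that makes the activator of phosphofructokinase. It had signals of 9.08, 8.60, 9.16 and 9.29 with rTFF2 against 7.85, 7.50, 8.31 and 8.67 in control cultures, and rose within each mouse by 0.62 to 1.23. The fitted difference was 0.95 (standard error 0.11, 1.93-fold, adjusted p = 0.0014, and 0.023 without the block). *Slc16a3*, the gene of the lactate exporter MCT4, was dimmer, with signals of 4.53, 4.08, 5.13 and 5.42 with rTFF2 against 4.30, 3.50, 4.76 and 4.73 in control cultures. The groups overlapped, and it rose in 4 of 4 mice, by 0.47 in the fit (standard error 0.09, 1.38-fold, adjusted p = 0.011, and 0.38 without the block), and with the offset of 32, which damps dim values, it was not called (0.20, adjusted p = 0.064).

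**Figure D2:**
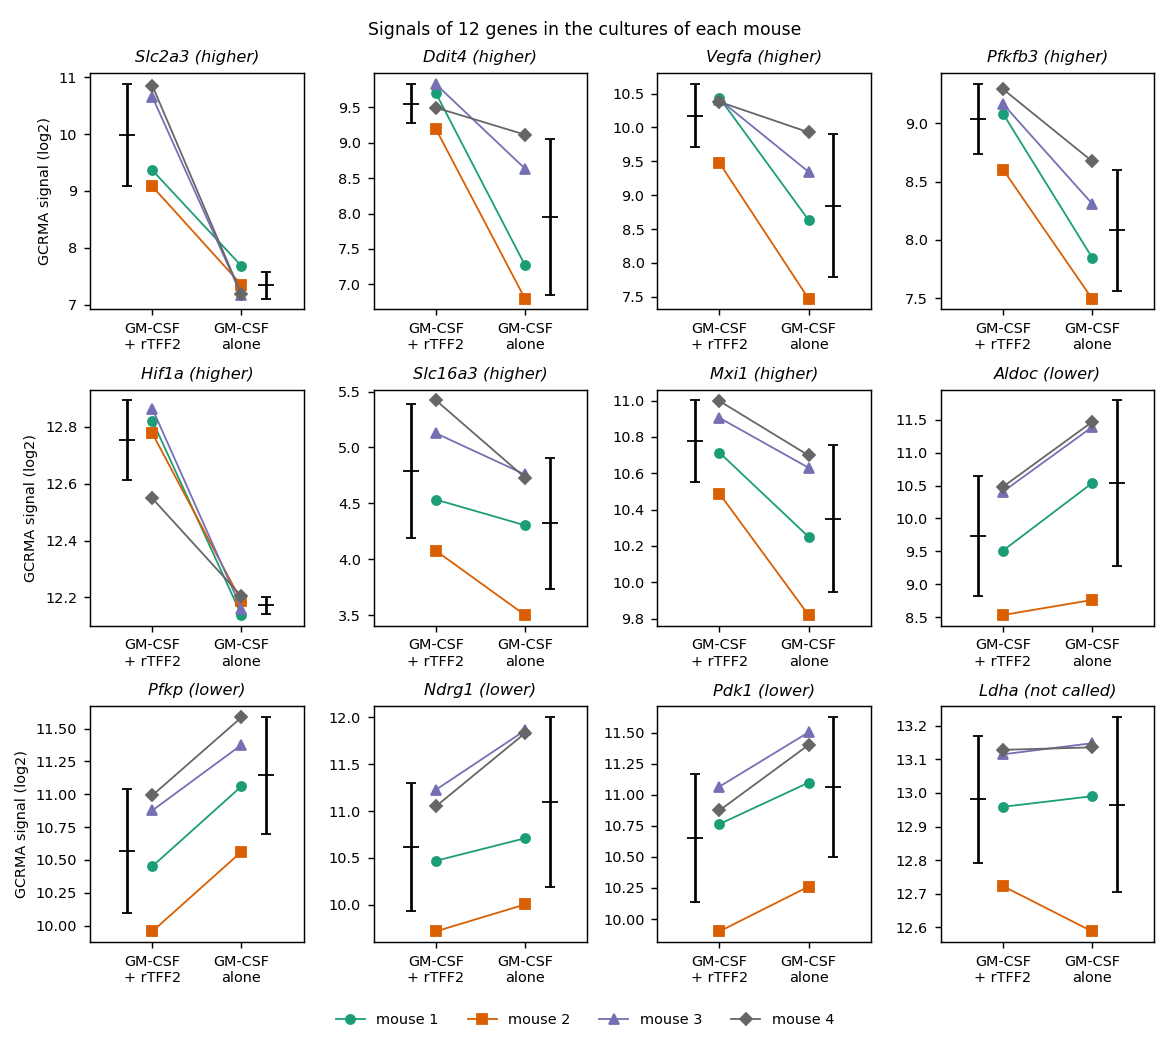
GCRMA signal (log2, vertical axes with their own scale and no zero) of the 11 genes called and of *Ldha* in the rTFF2 culture (left) and the control culture (right) of each mouse, joined by a line, with bars for the mean and SD of n = 4. Lines of one gene run nearly parallel for *Pfkp* and *Pdk1*, and fan out in the control cultures for *Ddit4* and *Vegfa*, where the rTFF2 values span 0.63 and 0.96 and the control values 2.31 and 2.46.

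Among hypoxia genes, 4 of 14 were higher, 2 were lower and 8 were not called, with a median of 0.13. The share called, 42.9%, was near the 40.4% of genes above background, with 27.7% over all genes. Of the genes that sense oxygen or form the factor, *Hif1a* rose. It encodes the regulated alpha chain of HIF-1, and had signals of 12.82, 12.78, 12.86 and 12.55 with rTFF2 against 12.14, 12.19, 12.16 and 12.20 in control cultures. The groups did not overlap and the control cultures lay within 0.07 of each other. The rise was 0.58 (standard error 0.08, 1.49-fold, adjusted p = 0.0031, and 0.0012 without the block). All 4 of its probe sets were called, 1 of them at background, with log2 fold changes of 0.29 to 1.37, so the size of the rise depends on the probe set. *Epas1*, the gene of the related HIF-2 alpha chain, lay at background in all 8 cultures. *Egln1* and *Egln3* encode the prolyl hydroxylases PHD2 and PHD3, and *Egln3* is itself a HIF target. Their differences were 0.23 and -0.18 (95% confidence intervals -0.09 to 0.55 and -0.48 to 0.11), and the second *Egln1* probe set had the opposite sign (-0.28). Without mouse 2 *Egln3* was called at -0.34 (adjusted p = 0.038).

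The hypoxia targets went both ways. *Ddit4* encodes REDD1, an inhibitor of the growth kinase mTORC1 that is also induced by glucocorticoids and by stress. Its signals were 9.70, 9.19, 9.82 and 9.49 in the rTFF2 cultures of mice 1 to 4, against 7.27, 6.80, 8.63 and 9.11 in control cultures. The lowest rTFF2 value was just above the highest control value, and the rise was 2.43, 2.39, 1.19 and 0.38 in mice 1 to 4. In the fit it was 1.60 (standard error 0.33), a 3.03-fold rise (95% confidence interval 1.76 to 5.19, adjusted p = 0.013). It was not called with the offset (adjusted p = 0.074) or with a trended and robust prior (0.069). *Vegfa*, the angiogenic growth factor gene, had signals of 10.44, 9.48, 10.41 and 10.38 with rTFF2 against 8.63, 7.47, 9.35 and 9.93 in control cultures. Mouse 4 rose least, by 0.45, and the others by 1.06 to 2.00. Its fitted difference was 1.33 (standard error 0.24, 2.51-fold, adjusted p = 0.0077), with 0.074 without the block and 0.054 with the offset, and its second probe set gave 0.69. *Mxi1*, a gene of an antagonist of MYC, had signals of 10.71, 10.49, 10.91 and 10.998 with rTFF2 against 10.25, 9.82, 10.63 and 10.70 in control cultures. Its groups overlapped, and it rose in 4 of 4 mice, by 0.43 in the fit (standard error 0.09, adjusted p = 0.012, 0.15 without the block and 0.052 without mouse 1).

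*Pdk1* and *Ndrg1* fell. *Pdk1* encodes a kinase that shuts off pyruvate dehydrogenase and so diverts pyruvate from mitochondria. Its signals were 10.76, 9.90, 11.07 and 10.87 with rTFF2 against 11.10, 10.26, 11.50 and 11.40 in control cultures, lower by 0.33 to 0.53 in each mouse, with overlapping groups. The fit gave -0.41 (standard error 0.07, 1.33-fold lower, adjusted p = 0.0059, and 0.39 without the block), and the second probe set -0.43. *Ndrg1*, a stress and hypoxia response gene, had signals of 10.47, 9.72, 11.23 and 11.05 with rTFF2 against 10.71, 10.00, 11.86 and 11.83 in control cultures. The groups overlapped, and it was lower in 4 of 4 mice, by 0.48 in the fit (1.40-fold lower, adjusted p = 0.016, and 0.50 without the block). Without mouse 3 or mouse 4 its adjusted p was 0.074 and 0.058, and with the offset 0.061. Its 5 probe sets all had negative log2 fold changes, from -0.98 to -0.47, and 3 were called.

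Other classical targets did not pass. *Bnip3*, a gene of mitophagy, had signals of 11.35, 10.42, 12.17 and 12.16 with rTFF2 against 11.48, 9.42, 12.25 and 12.29 in control cultures, and moved by 1.00 in mouse 2 and by -0.13 to -0.08 in the others. Its fitted difference was 0.16 (95% confidence interval -0.29 to 0.62), and without mouse 2 it was -0.11. The glycogen synthase gene *Gys1* behaved alike, with 0.88 in mouse 2, -0.35 to 0.06 in the others and 0.10 in the fit. The collagen prolyl hydroxylase gene *P4ha1* was higher in 4 of 4 mice, by 0.12 to 1.24 (fit 0.55, adjusted p = 0.061). For *Higd1a*, a mitochondrial hypoxia gene, the brightest probe set gave -0.18 and a dimmer one was called higher at 0.53, so no direction is given. The adrenomedullin gene *Adm* stayed at or under background in both group means.

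**Figure D3:**
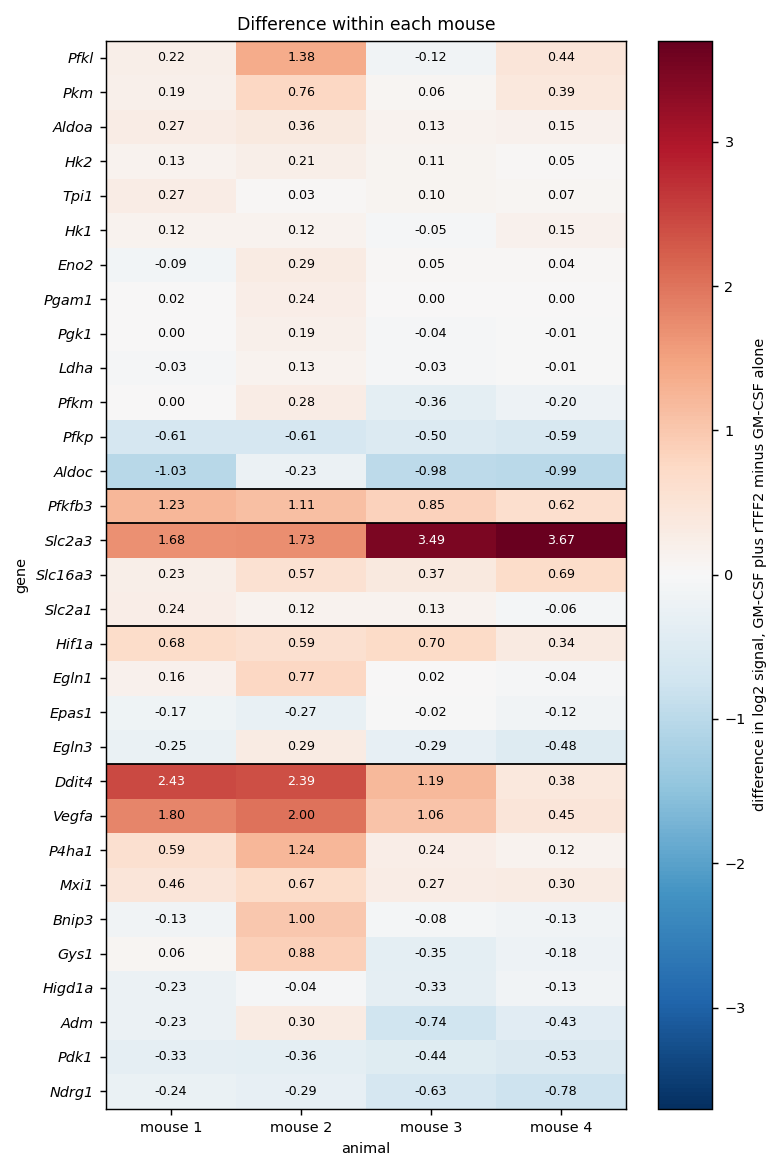
Difference in log2 signal (rTFF2 culture minus control culture) of the 31 genes within each of the 4 mice, red where higher and blue where lower with rTFF2, with lines between the groups of genes. *Slc2a3* differed most in mice 3 and 4, *Ddit4* and *Vegfa* most in mice 1 and 2, and *Bnip3*, *Gys1* and *Egln3* were higher with rTFF2 in mouse 2 beside values of -0.48 to 0.06 in the others.

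Differences between animals were large and shared by most of these genes. Mouse 2 had the lowest signal of its group, both with rTFF2 and without, for 26 of the 28 genes above background (92.9%), among them all 12 such glycolytic enzymes and 11 of 12 hypoxia genes. The same held for 1219 of 7926 expressed genes (15.4%). The exceptions were *Hif1a*, for which mouse 2 was lowest in neither group, and *Slc2a3*, for which it was lowest with rTFF2 alone. For *Egln3* the rTFF2 culture of mouse 2 stood at 8.46, with the other mice at 10.28 or more, and its control culture at 8.18, with the others at 10.54 or more. *Bnip3* stood at 10.42 in the rTFF2 culture of mouse 2, with the others at 11.35 or more, and at 9.42 in its control culture, with the others at 11.48 or more. In 26 further hypoxia targets, a list of other genes, the share was 15 (57.7%), and in 10 pentose phosphate genes it was 1. The summed neutrophil signal of mouse 2 was the second lowest with rTFF2 (16.58, with 16.53 to 16.77 in the others) and the highest in control cultures (16.14, with 15.23 to 15.87 in the others). Its macrophage sum was the lowest in both groups (15.64 with rTFF2, with 15.80 to 15.84 in the others, and 15.22 in control cultures, with 15.54 to 15.66), and the part of these in its low values was not tested.

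For most of these genes the mice were also more alike with rTFF2. The SD over the mice was smaller with rTFF2 than without for 23 of the 28 genes (82.1%), with medians of 0.33 with rTFF2 and 0.48 in control cultures. Of all expressed genes this held for 61.7%, with medians of 0.14 with rTFF2 and 0.16 in control cultures. Among hypoxia genes this was so for 11 of 12, with median SDs of 0.49 with rTFF2 and 0.93 in control cultures. It was so for 2 of the 4 genes of transport and *Pfkfb3* (medians of 0.45 with rTFF2 and 0.39 in control cultures). Outside the set it held for 25 of 26 further hypoxia targets, 14 of 16 neutrophil, 10 of 13 macrophage and 9 of 12 glycogen genes. It held for 4 of 10 pentose phosphate genes and 1 of 11 dendritic cell genes, so the smaller spread was not particular to these members. *Hif1a* and *Slc2a3* were among the 5 that went the other way, with rTFF2 values over a range of 0.32 and 1.77 and control values over 0.07 and 0.51. A fit without the pairing called only *Slc2a3*, *Pfkfb3*, *Hif1a* and *Ddit4*, all higher, and none of the 31 genes as lower (limma; 0 also at an unadjusted p under 0.05). Of all 12393 genes that fit called 1531 as higher and 1389 as lower.

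**Figure D4:**
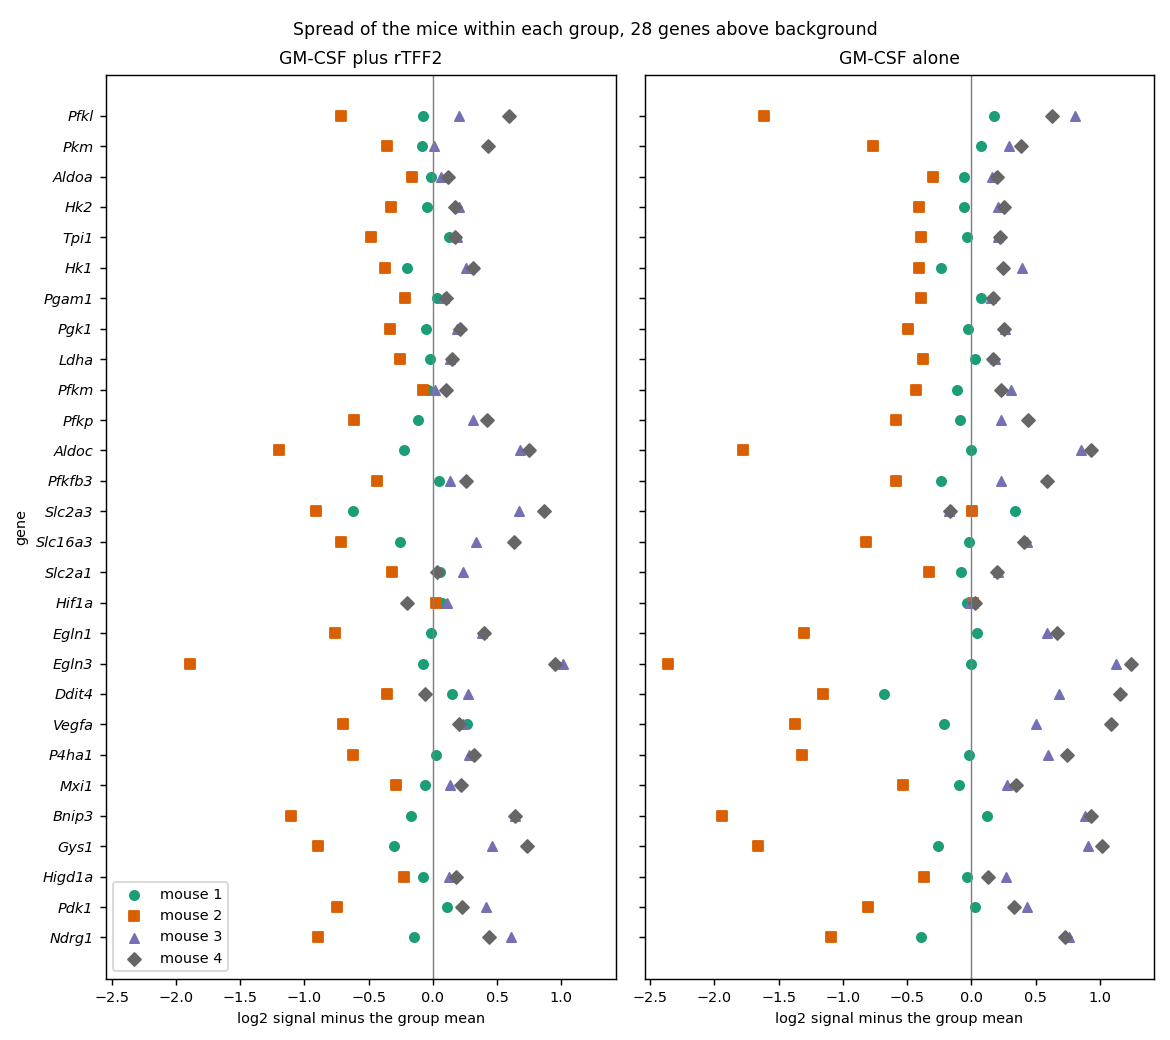
Log2 signal of each culture minus the mean of its group (horizontal axis) for the 28 genes above background, with GM-CSF plus rTFF2 on the left and GM-CSF alone on the right, symbols for the mice. The squares of mouse 2 lie leftmost in both panels for 26 of 28 genes, and the points lie closer together in the left panel for 23 of 28.

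Several probe sets were present for 20 of the 31 genes, 64 probe sets in all. For the genes called, every further probe set above background had the same sign as the brightest one. Signs differed between probe sets above background for *Egln1*, *Higd1a* and *Pgk1*, and none of these 3 genes was called by its brightest probe set. For *Pfkfb3* the second probe set lay at background.

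**Figure D5:**
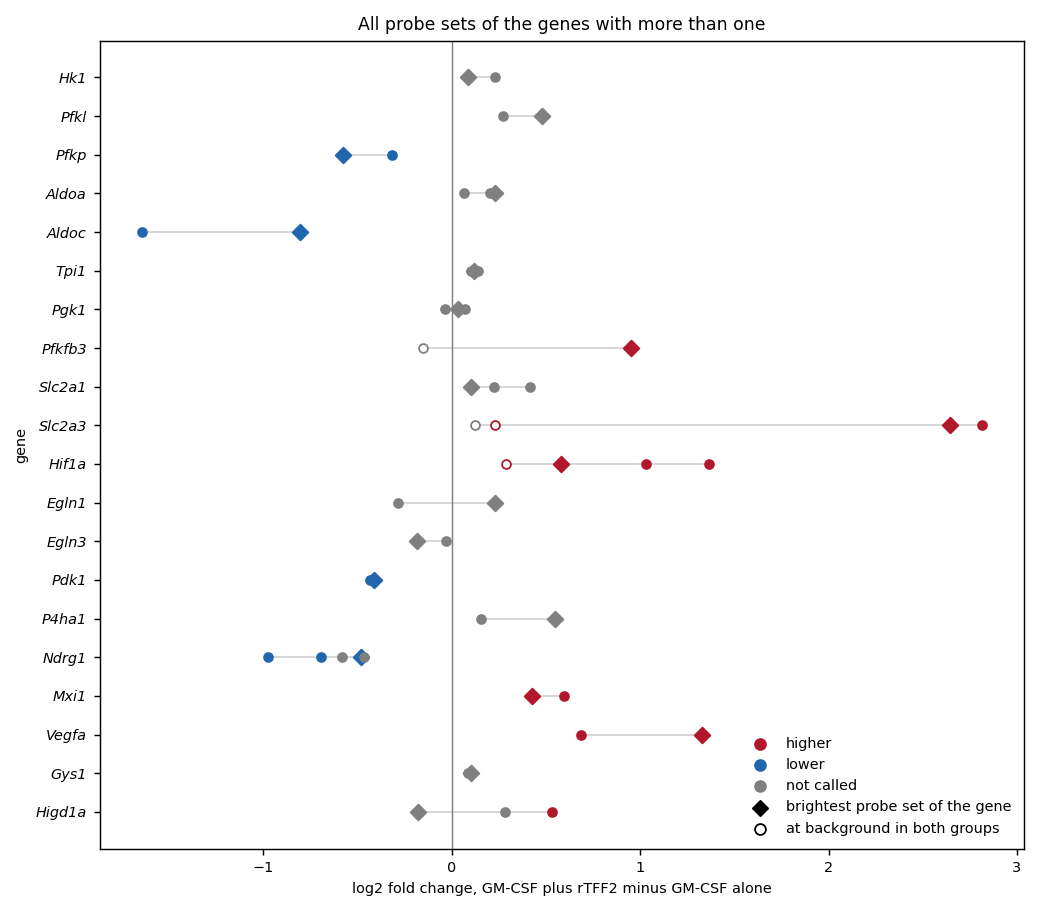
Log2 fold change (rTFF2 cultures minus control cultures) of every probe set of the 20 genes with more than one, coloured by its call at adjusted p under 0.05, with a diamond for the brightest and open symbols for probe sets at background. *Hif1a*, *Vegfa* and *Mxi1* lie to the right and *Aldoc*, *Ndrg1*, *Pdk1* and *Pfkp* to the left with all their probe sets.

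The promoters of these genes were read for ACGTG, a form of the core of the HIF binding site. HIF-1 binds DNA at a core of A or G followed by CGTG. Only ACGTG was searched, on both strands, in the 250 bases before the most upstream start of each gene in RefSeq (GRCm38.p6). The form GCGTG was not counted, and several windows printed below hold it, among them those of *Pfkp* and *Pdk1*. A site within CACGTG, a motif of the MYC family, was counted once. Promoters of 28 of the 31 genes were in the table, and 14 of them (50%) held at least 1 ACGTG, against 16.5% of all 27018 promoters and 19.9% of the 9885 promoters of genes on the arrays. Of the genes higher with rTFF2, 4 of 6 held it (*Pfkfb3*, *Slc16a3*, *Hif1a* and *Ddit4*), of those lower 0 of 3, and of those not called 10 of 19. These shares rest on few genes and on names chosen partly as HIF targets, so they are a description only, and a match is not a binding site. The following sequences show promoters of genes that rose, were not called, or fell, 5′ to 3′ with each ACGTG, on either strand, in capitals. *Pfkfb3*, *Hif1a* and *Ddit4* rose, *Ldha* and *Bnip3* were not called, and *Pfkp* and *Pdk1* fell.
Pfkfb3 (chr2:11553930-11554179, minus strand): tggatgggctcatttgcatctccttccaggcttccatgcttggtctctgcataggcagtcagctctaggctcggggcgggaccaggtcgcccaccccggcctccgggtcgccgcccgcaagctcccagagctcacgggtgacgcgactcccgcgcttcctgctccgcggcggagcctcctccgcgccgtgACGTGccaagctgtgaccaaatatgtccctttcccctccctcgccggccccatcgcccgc
Hif1a (chr12:73907617-73907866, plus strand): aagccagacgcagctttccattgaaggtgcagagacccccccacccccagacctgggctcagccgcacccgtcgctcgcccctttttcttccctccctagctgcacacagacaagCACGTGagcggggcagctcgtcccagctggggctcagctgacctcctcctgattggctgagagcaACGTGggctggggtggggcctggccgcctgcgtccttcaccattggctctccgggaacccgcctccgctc
Ddit4 (chr10:59951771-59952020, minus strand): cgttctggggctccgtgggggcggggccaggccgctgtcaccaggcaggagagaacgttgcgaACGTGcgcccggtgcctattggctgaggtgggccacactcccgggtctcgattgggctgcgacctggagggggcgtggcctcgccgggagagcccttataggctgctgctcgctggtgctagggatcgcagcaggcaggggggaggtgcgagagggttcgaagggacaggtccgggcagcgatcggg
Ldha (chr7:46845554-46845803, plus strand): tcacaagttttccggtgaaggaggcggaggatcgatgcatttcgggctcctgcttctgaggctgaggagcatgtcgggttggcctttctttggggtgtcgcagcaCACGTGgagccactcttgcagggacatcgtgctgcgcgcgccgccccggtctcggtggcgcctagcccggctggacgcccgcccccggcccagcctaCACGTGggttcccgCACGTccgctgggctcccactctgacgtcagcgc
Bnip3 (chr7:138909507-138909756, minus strand): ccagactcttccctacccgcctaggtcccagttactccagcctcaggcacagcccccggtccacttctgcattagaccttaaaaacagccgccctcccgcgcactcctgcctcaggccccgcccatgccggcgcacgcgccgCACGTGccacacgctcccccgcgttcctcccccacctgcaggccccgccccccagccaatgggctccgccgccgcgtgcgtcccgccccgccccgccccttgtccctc
Pfkp (chr13:6648772-6649021, minus strand): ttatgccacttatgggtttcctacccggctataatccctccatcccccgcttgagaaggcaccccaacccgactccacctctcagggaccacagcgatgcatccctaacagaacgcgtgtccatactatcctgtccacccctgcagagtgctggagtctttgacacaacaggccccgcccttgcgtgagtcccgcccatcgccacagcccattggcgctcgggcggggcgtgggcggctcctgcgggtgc
Pdk1 (chr2:71872974-71873223, plus strand): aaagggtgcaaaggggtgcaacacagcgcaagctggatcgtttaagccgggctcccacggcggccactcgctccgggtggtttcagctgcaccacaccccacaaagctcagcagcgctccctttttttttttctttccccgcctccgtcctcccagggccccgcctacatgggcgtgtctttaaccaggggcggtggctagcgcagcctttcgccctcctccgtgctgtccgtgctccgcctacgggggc
In *Ldha* the 3 sites lie 144, 47 and 34 bases before the start, and in *Pfkfb3* the single site lies 60 bases before it. *Ldha* held the most ACGTG sites of the set and had nearly the same signal in both groups. *Vegfa* and *Mxi1* rose, and their windows held none, while bases outside the windows were not searched. The part of such sites in the changes was not tested.

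Other genes of the same pathways, from lists of names, moved both ways. The shares called in these lists stand beside 27.7% of all genes and 40.4% of those above background. Of 37 further hypoxia targets, 4 were higher and 2 lower (16.2% called), with a median of -0.05. *Hilpda*, which encodes a lipid droplet protein induced by hypoxia, had signals of 10.61, 9.73, 10.17 and 10.11 with rTFF2 against 7.73, 6.29, 8.75 and 9.29 in control cultures. The groups did not overlap, and it was 4.40-fold higher (log2 fold change 2.14, standard error 0.40, adjusted p = 0.0090). *Plod1*, a collagen lysyl hydroxylase gene, was higher by 0.91 (adjusted p = 9.4e-04) and *Rsbn1* by 0.37 (0.015), while the growth factor gene *Pdgfb* averaged 2.94 with rTFF2, at background, and 4.08 in control cultures (5.4e-04). Of 15 further HIF regulators, 3 were higher and 3 lower (40% called). *Siah2*, which encodes a ubiquitin ligase that removes prolyl hydroxylases, fell by 0.93 (adjusted p = 0.0011), its relative *Siah1a* rose by 0.35 (0.011), *Os9* rose by 0.24 (0.037), and *Arnt2* lay at background. Of 18 further isoenzymes and branch enzymes of glycolysis, 1 was higher and 2 were lower (16.7% called). The testis-type *Ldhc*, near background, was higher. Lower were *Gpd2* of the glycerol phosphate shuttle (-0.56, adjusted p = 0.016) and the mitochondrial *Pck2* (-0.58, 0.030, and 0.14 without the block).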

How the data were processed

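Groups, animals and doses were taken from the sample labels. The authors deposited log2 signals per probe set, computed with GCRMA (GCRMA 2.30.0 and affy 1.36.0 in the submitters' processing notes), which corrects background by the base content of the probes, normalizes the arrays to 1 distribution and summarizes each probe set. Signals near background depend on that correction, and bright ones may be compressed. Nothing was renormalized. Precision is limited by the number of arrays.

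Of 22690 probe sets, 64 controls were left out. Tests on the other 22626 used limma 3.58.1 under R 4.3.3 (lmFit, eBayes; mouse as a block; Benjamini-Hochberg, threshold 0.05). Platform annotation gave 1 symbol to 20380 of these probe sets, several to 691 and none to 1555. The background level is the 95th percentile of group means of 46 genes of other tissues.

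The sources describe 1 sort per animal, split into both cultures. The sample titles number the replicates 1 to 4 in each group, and equal numbers were taken as the same animal. In 14009 probe sets above background, the correlation of same-mouse deviations from the means of their groups was 0.05, 0.53, 0.30 and 0.39 (mice 1 to 4), and -0.53 to 0.33 between different mice. The rTFF2 cultures of mice 1 and 3 correlated more with another mouse's control culture (0.16 and 0.33) than with their own. The pairing therefore rests on the numbers in the titles, and this check does not settle it. The members and gene lists were chosen with earlier results of these data known. Values of every culture are given for the genes called and for Hif1a, Gapdh, Ldha, Slc2a1 and Vegfa; Bnip3, Hilpda and Slc16a7 were added after their values were seen. From each further list up to 4 genes past the threshold with the smallest adjusted p are named. The fit was tested on simulated data. Alternatives were the fit without the block, a filter on dim probe sets, a second quantile normalization, median centring, an offset of 32, array weights, a robust prior with a trend, each mouse left out, probe sets averaged per gene, a threshold of 0.01 and the Actb 3′ to 5′ difference as a covariate. Promoters are RefSeq's (GRCm38.p6).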

Additional observations from a re-analysis of the deposited data

Results flagged for a closer look

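In 62 groups of 4 cultures (31 genes in 2 groups), 3 had a culture that stood apart from the others by the gap to its nearest neighbour, and chance flags about 1 in 20 such groups, 3.1 here. All 3 cultures came from mouse 2. In the rTFF2 culture *Tpi1* had a log2 signal of 12.51, with the other mice at 13.12 to 13.18, and *Vegfa* had 9.48, with the others at 10.38 to 10.44. In the control culture of mouse 2 *Pgam1* had 12.48, with the others at 12.95 to 13.04.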

How the results depend on the processing

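The settings besides the one reported numbered 15, and over the 31 genes they gave 405 values with the same direction and side of the threshold, 28 that lost a call, 9 that gained one and 20 that changed sign. Without the pairing by mouse (no replicate block) 4927 probe sets were called (2636 higher, 2291 lower). Of the 31 genes 4 were then called, 4 higher and 0 lower, with 0 of the glycolytic enzymes (0 lower) and 2 of the hypoxia genes (2 higher, 0 lower). With quantile normalization 1 glycolytic enzyme was higher. With the offset of 32 the count was also 1, and 3 hypoxia genes were called (2 higher, 1 lower). The trended and robust prior called 4 glycolytic enzymes, 2 of them higher. At a threshold of 0.01, 2906 of the probe sets were called (1640 higher, 1266 lower), 7 of the 31 genes (4 higher) and 3 hypoxia genes (2 higher, 1 lower), against 5811 probe sets (3095 higher, 2716 lower), 11 genes and 6 hypoxia genes at 0.05. With the *Actb* 3′ to 5′ difference as a covariate, 1588 probe sets were called (829 higher, 759 lower), with 4 of the 31 genes (1 higher), 1 glycolytic enzyme (1 lower), 2 hypoxia genes (0 higher) and 1 transporter or *Pfkfb3* (1 higher). Median centring of the arrays called 6122 probe sets, 2587 higher and 3535 lower, and left the counts of these genes as they were. Leaving out each mouse in turn gave 3609 to 5006 probe sets (2016 to 2708 higher, 1593 to 2298 lower), 10 to 13 of the 31 genes and 1 to 4 lower hypoxia genes. The cause of these shifts was not tested.

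Signs changed only for genes that were not called with the deposited values. Centring gave -0.0127 for *Pgk1* and -0.0326 for *Ldha*. Leaving out a mouse gave -0.0164 to 0.0609 for *Pgk1*, -0.0240 to 0.0318 for *Ldha*, -0.11 to 0.26 for *Bnip3* and -0.16 to 0.25 for *Gys1*, each negative without mouse 2, and -0.19 to 0.0269 for *Pfkm*, positive without mouse 3. The mean over probe sets was -0.0282 for *Egln1* and 0.21 for *Higd1a* (called, adjusted p = 0.042). With the *Actb* covariate the values were -0.40 for *Pfkl*, -0.13 for *Pgk1*, -0.11 for *Pgam1*, -0.11 for *Eno2*, -0.0310 for *Pkm*, -0.10 for *Ldha*, 3.8e-04 for *Epas1*, -0.36 for *Egln1*, -0.67 for *Bnip3*, -0.26 for *P4ha1* and -0.75 for *Gys1*.

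With 4 mice, small changes cannot be told from none, and signals near the background level of 2.99 carry little information on a change.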

Other observations

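Neighbouring pathways of glucose use were measured through lists of names. Called were 40% of the pentose phosphate, 23.5% of the glycogen, 25% of the pyruvate and 16.7% of the other hexose transporter genes. Over all genes 27.7% were called, and over those above background 40.4%. Of 10 pentose phosphate genes, 3 were higher and 1 was lower with rTFF2. *H6pd*, whose product makes NADPH in the endoplasmic reticulum, was 2.11-fold higher (log2 fold change 1.08, adjusted p = 6.4e-04), *Rpia* by 0.43 (0.0052) and the ribokinase gene *Rbks* by 0.42 (0.0070), while the phosphoribosyl pyrophosphate synthetase gene *Prps2* fell by 0.45 (0.023). Of 17 glycogen genes, 2 were higher and 2 lower. The phosphorylase genes moved apart, with *Pygl*, the liver form, higher by 0.38 (adjusted p = 0.0099) and *Pygb*, the brain form, lower by 0.80 (0.0050). *Gaa*, the lysosomal glucosidase gene, was higher by 0.66 (0.0055), and *Stbd1* stayed at background.

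Among 12 genes of pyruvate entry and pyruvate dehydrogenase, *Slc16a7*, which encodes the monocarboxylate transporter MCT2, was 2.63-fold higher (log2 fold change 1.40, standard error 0.10, adjusted p = 3.4e-04), with 6.21, 6.31, 6.04 and 5.72 in rTFF2 cultures and 4.84, 5.18, 4.30 and 4.37 in control cultures. The pyruvate dehydrogenase gene *Dlat* (-0.46) and the pyruvate carboxylase gene *Pcx* (-0.47, dim) were lower. Among 6 other hexose transporters *Slc2a9* was called, at 3.45 with rTFF2 and 2.93, at background, in control cultures.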
